A study of Homo sapiens with 6 samples.

Results

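The 10 genes RRAD, TP53I3, RRM2B, GDF15, TP53INP1, SUSD6, FDXR, ZMAT3, BTG2 and GADD45A are known targets of the transcription factor p53. They are grouped here as targets outside apoptosis, a grouping that does not exclude a part in apoptosis. They were chosen from known p53 targets with the SCH-against-vehicle changes of these same samples in view, so their changes are given as a description and carry no test. All 10 were found by gene name among the 58735 genes of the deposited files. All 10 passed the low-count filter that kept 14736 genes, although BTG2 did so only through the treated group.

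The samples were MDA-MB-231 cells, an established human triple-negative breast cancer line labelled wild type for genotype. They were exposed for 24 h to vehicle (3 samples) or to 100 mg/l of SCH, an extract of the herb Salvia chinensis Benth (3 samples), and their poly-A RNA was sequenced. The submitters describe the 3 samples of a group as biological repeats, and the vehicle is not named in the sources used here. One cell line, one dose and one time point were sampled, and in bulk RNA a smaller number of responding cells cannot be told apart from less RNA per cell.

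The protein p53 binds DNA as a tetramer and turns on genes after DNA damage and other stress. Its targets include brakes on the cell cycle, enzymes for repair and nucleotide supply, redox enzymes, autophagy factors and a feedback loop through MDM2, besides the genes of cell death.

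Depth was 20291379, 18714240 and 18334857 gene-assigned reads in vehicle replicates 1 to 3, and 16836369, 17979434 and 18414924 in SCH replicates 1 to 3. Levels are given as normalized CPM, the count scaled to library size and TMM factor, for comparisons between samples, and as FPKM, which divides by gene length, for comparisons between genes. The labelled line was checked against marker genes. Of the basal, mesenchymal-like markers, VIM (vimentin) stood at 263 FPKM in vehicle and 180 in SCH, CD44 at 96.6 and 99.3, and MSN was also present, whereas SPARC was near 0 at 0.0146 and 0.0145 FPKM. Markers that the line should lack, CDH1, ESR1 and PGR, had at most 6 counts in any sample. Of the epithelial markers, KRT18 stood at 129 FPKM in vehicle and 74.5 in SCH, KRT8 at 128 and 109.8, EPCAM at 6.53 and 4.59, and ERBB2 at 6.67 and 8.22, so these 4 were not absent from cells labelled as this line. Markers of other cells summed to 0.340, 0.461 and 0.419 FPKM in vehicle and 0.140, 0.233 and 0.251 FPKM in SCH, with 5 of 6 having a count and HBB at 0. The most abundant in vehicle, the leukocyte gene PTPRC, fell from 1.99 ± 0.0750 to 0.290 ± 0.171 normalized CPM (SD, 3 samples each). That is -2.75 on the log2 scale (SE 0.37; edgeR adjusted p = 8.80e-07). PTPRC had 39, 37 and 34 reads in vehicle and 4, 9 and 3 in SCH. The only other tested marker of this list, PECAM1, was not called, with 1.10 normalized CPM in vehicle and 1.21 in SCH (edgeR adjusted p = 0.702). In SCH, PECAM1 was above PTPRC, at 0.151 against 0.0307 FPKM. Whether these reads came from other cells or from the line itself was not tested, nor was any part of other cells in the results below.

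All but 1 of the 10 genes were higher in SCH than in vehicle, with every SCH sample above every vehicle sample, and GDF15 was the exception. The log2 fold changes of the 10 genes ran from 0.05 for GDF15 to 3.03 for BTG2, with a median of 1.07, against a median of -0.0034 over all 14736 genes tested. The treatment moved much of the transcriptome: 31.1% of all tested genes had all SCH samples above all vehicle samples, and 58.7% passed an adjusted p of 0.05 in the edgeR fit, 29.3% raised and 29.4% lowered. Because the genes were picked with these changes known, nothing is read from their count against that background. Ranked by log2 fold change from the top of the 14736 genes, BTG2 stood at 5, RRAD at 24 and TP53INP1 at 51. The next, TP53I3, RRM2B and SUSD6, stood at 470, 482 and 493, ZMAT3 at 740, GADD45A at 895, FDXR at 2288 and GDF15 at 6559.

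**Figure D1:**
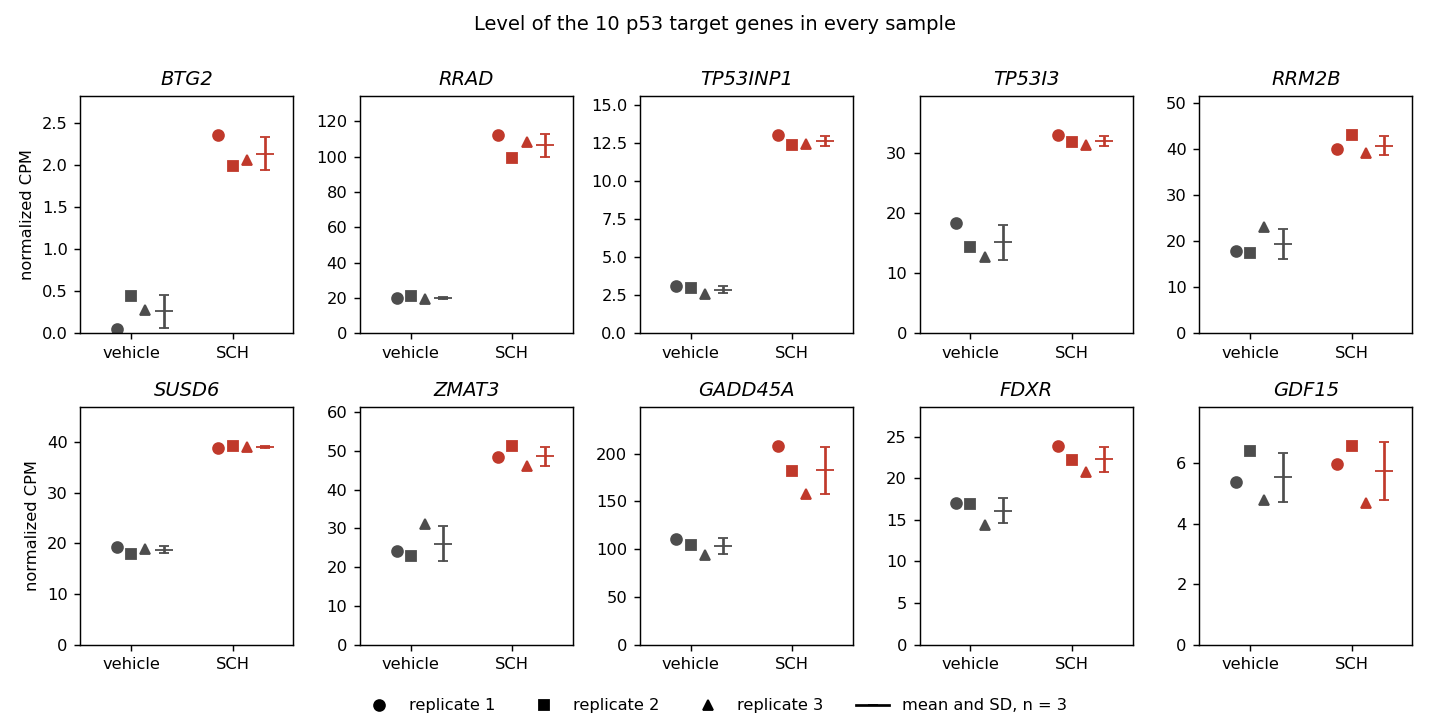
Normalized CPM of each of the 10 genes in the 3 vehicle and the 3 SCH samples, each panel on its own linear axis from 0; each point is 1 sample, and the line with its error bar is the mean and SD. The groups are apart for 9 genes and overlap for GDF15.

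Among the genes that restrain growth, BTG2, an antiproliferative cofactor of mRNA deadenylation, had the largest ratio and the lowest level. BTG2 (ENSG00000159388, chr1:203305491-203309602, plus strand, GRCh38) had 1, 8 and 5 reads in vehicle replicates 1 to 3 and 41, 37 and 39 reads in SCH replicates 1 to 3. In normalized CPM these were 0.0513, 0.446 and 0.281 in vehicle and 2.35, 1.99 and 2.05 in SCH. The vehicle samples differed widely from each other on so few reads, whereas the SCH samples lay close together and clear of them. The mean was 8.21 times higher in SCH, a log2 fold change of 3.03 (SE 0.40), which ran from 2.53 to 3.67 when 1 sample was left out and reached 3.67 without vehicle replicate 2. On the log2(FPKM + 1) scale, which shrinks low genes, the difference of BTG2 was 0.68.

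GADD45A, a small acidic stress protein that binds PCNA and acts on the cell cycle and on kinase signalling, was at the other end of the level scale. GADD45A (ENSG00000116717, chr1:67685061-67688338, plus strand) measured 111, 104 and 94.2 normalized CPM in vehicle and 207, 182 and 158 in SCH. The lowest SCH sample was well above the highest vehicle sample, although the SCH samples spread more (CV 13.5%) than those of any other of the 10 genes except GDF15. GADD45A had a log2 fold change of 0.82 (SE 0.074), from 103 ± 8.38 to 183 ± 24.7 normalized CPM (SD, n = 3 each).

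RRAD, a small GTPase of the RGK family that dampens calcium channels and has been described as a brake on glycolysis, showed the largest change among the well-covered genes. RRAD (ENSG00000166592, chr16:66921679-66925644, minus strand) measured 19.9, 20.9 and 19.5 normalized CPM in vehicle and 112, 99.2 and 108 in SCH. The samples of each group lay close together, with no vehicle sample near any SCH sample. The mean was 5.31 times higher in SCH, a log2 fold change of 2.41 (SE 0.067) on 346 to 388 reads per vehicle sample.

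RRM2B, also called p53R2, is the ribonucleotide reductase subunit that supplies deoxynucleotides for DNA repair and mitochondrial DNA in cells outside S phase. RRM2B (ENSG00000048392, chr8:102204502-102239118, minus strand) measured 17.7, 17.4 and 23.1 normalized CPM in vehicle and 40.0, 42.9 and 39.1 in SCH. Vehicle replicate 3 stood above the other vehicle samples but far below all SCH samples. The log2 fold change of RRM2B was 1.07 (SE 0.090), from 19.4 ± 3.21 to 40.7 ± 2.01 normalized CPM.

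TP53INP1, a nuclear cofactor of p53 that also binds the autophagy protein LC3, was low in vehicle. TP53INP1 (ENSG00000164938, chr8:94925972-94949411, minus strand) measured 3.08, 2.95 and 2.59 normalized CPM in vehicle and 13.01, 12.4 and 12.5 in SCH. Both groups were tight, and the ranges were far apart. TP53INP1 had a log2 fold change of 2.13 (SE 0.13), a ratio of 4.40 on 46 to 60 reads per vehicle sample. On the log2(FPKM + 1) scale the difference of TP53INP1 was 1.09.

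The 2 redox enzymes of the set differed in size of change. TP53I3 (PIG3) is an NADPH-dependent quinone oxidoreductase (ENSG00000115129, chr2:24077433-24085861, minus strand). It measured 18.3, 14.3 and 12.7 normalized CPM in vehicle and 32.9, 31.8 and 31.2 in SCH, a log2 fold change of 1.08 (SE 0.098). The vehicle samples of TP53I3 spread more than its SCH samples, and all SCH samples were higher. TP53I3 was the only one of the 10 to share exonic bases with another gene: 80 bases, 3.46% of its exonic length, overlap FAM228B on the opposite strand, and whether the counting used strand is not stated in the sources used here.

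FDXR, the mitochondrial ferredoxin reductase that passes electrons from NADPH to ferredoxin for steroid and iron-sulphur cluster synthesis, had the smallest change of the 9. FDXR (ENSG00000161513, chr17:74862497-74873031, minus strand) measured 17.1, 16.9 and 14.4 normalized CPM in vehicle and 23.9, 22.2 and 20.8 in SCH. The gap between the highest vehicle sample and the lowest SCH sample was narrow, but the groups did not overlap. For FDXR the log2 fold change was 0.46 (SE 0.091), from 16.1 ± 1.51 to 22.3 ± 1.52 normalized CPM.

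ZMAT3, a zinc-finger RNA-binding protein that acts on splicing and mRNA stability, resembled RRM2B in its sample pattern. ZMAT3 (ENSG00000172667, chr3:179017223-179072279, minus strand) measured 24.2, 22.8 and 31.2 normalized CPM in vehicle and 48.5, 51.2 and 46.1 in SCH, a log2 fold change of 0.90 (SE 0.088). Vehicle replicate 3 was again the highest of its group, and it lay below all SCH samples. On the log2 scale that sample lay 0.27 above the vehicle mean for ZMAT3 and 0.26 above it for RRM2B, whereas it was the lowest vehicle sample for 6 of the 10 genes.

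SUSD6, a membrane protein with a sushi domain, also known as DRAGO, had the tightest SCH replicates of the 10 genes (CV 0.421%). SUSD6 (ENSG00000100647, chr14:69611596-69715142, plus strand) measured 19.3, 17.9 and 18.9 normalized CPM in vehicle and 38.9, 39.2 and 39.1 in SCH. The 3 SCH samples were almost equal and all above the vehicle samples. The log2 fold change was 1.06 (SE 0.073), close to those of TP53I3 and RRM2B.

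GDF15, a secreted stress cytokine of the TGF-beta superfamily whose receptor is GFRAL, did not separate the groups. GDF15 (ENSG00000130513, chr19:18374731-18389176, plus strand) measured 5.38, 6.41 and 4.78 normalized CPM in vehicle and 5.96, 6.55 and 4.68 in SCH. The lowest of the 6 values was an SCH sample, and so was the highest. The log2 fold change of GDF15 was 0.05 (SE 0.16), and it ran from -0.05 to 0.19 when 1 sample was left out. On 85 to 122 reads per sample the spread between replicates was larger than the difference between groups.

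Per unit of length, GADD45A and RRAD made up most of the RNA of the 10 genes. In vehicle the order in mean FPKM was GADD45A at 48.1, RRAD at 11.4, TP53I3 at 6.31, FDXR at 4.33, RRM2B at 3.38, SUSD6 at 3.10, ZMAT3 at 2.61, GDF15 at 2.56, TP53INP1 at 0.489 and BTG2 at 0.0909. Of the neighbours in that order, FDXR and RRM2B overlapped in their sample values, as did RRM2B and SUSD6, SUSD6 and ZMAT3, and ZMAT3 and GDF15. In SCH the order was GADD45A at 85.7, RRAD at 60.5, TP53I3 at 13.4, RRM2B at 7.12, SUSD6 at 6.50, FDXR at 6.01, ZMAT3 at 4.89, GDF15 at 2.67, TP53INP1 at 2.16 and BTG2 at 0.750, and there only GDF15 and TP53INP1 overlapped. RRM2B and SUSD6 therefore stood above FDXR in SCH and below it in vehicle. The summed FPKM of the 10 genes was 82.3 ± 4.97 in vehicle and 189.8 ± 15.1 in SCH (SD, n = 3 each). The share of GADD45A in that sum was 58.4% in vehicle and 45.0% in SCH, and that of RRAD 13.8% and 31.98%. Against all tested genes, mean FPKM placed RRAD at percentile 71.3 in vehicle and 95.4 in SCH, and BTG2 at 1.11 and 18.5.

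The 10 genes varied widely in size. Their genomic spans ran from 3278 bases for GADD45A to 103547 bases for SUSD6, with a median of 12490.5 bases against 28259.5 over all tested genes. Across the samples, SCH replicate 1 was the highest of its group for 6 of the 10 genes and SCH replicate 3 the lowest for 6.

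The promoters are shown because p53 binds a known DNA element made of a pair of 10-base half-sites, each with a C and a G at its fixed inner positions. RefSeq start-site windows on GRCh38.p14, 250 bases before to 50 after each start, were at hand for 6 of the 10 genes, TP53I3, GDF15, SUSD6, FDXR, ZMAT3 and BTG2, in 8 windows, since FDXR and ZMAT3 have a second start. RRAD, RRM2B, TP53INP1 and GADD45A are named only. The best match of each gene to the p53 element with no spacer is given 5′ to 3′ on the gene's strand, with the 20 compared bases in capitals. The element equals its own reverse complement, so both strands were searched at once.
BTG2, 16 of 20 letters, chr1:203305500-203305529 plus strand: gcccgGGGAAAGTCCGGGCAGAGCCcgagc
FDXR, 17 of 20 letters, chr17:74872991-74873020 minus strand: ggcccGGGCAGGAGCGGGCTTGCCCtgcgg
GDF15, 17 of 20 letters, chr19:18386178-18386207 plus strand: acctgcacAGCCATGCCCGGGCAAGAACtc
SUSD6, 15 of 20 letters, chr14:69611503-69611532 plus strand: gttgcGTGCGCGCCTGGCCCTGCCCctttc
TP53I3, 15 of 20 letters, chr2:24084876-24084905 minus strand: gggggAGGGTGGTTCTGCTTAGCCCcaccc
ZMAT3, 16 of 20 letters, chr3:179071868-179071897 minus strand: ctgccGGGCCTGCTCCGCCAAGCACatgcg

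FDXR and GDF15 reached 17 of 20 letters, a score reached or exceeded in 5.20% of 35116 RefSeq windows. BTG2 and ZMAT3 reached 16, reached or exceeded in 25.98%. These shares are per window, whereas FDXR and ZMAT3 were scored by the better of 2 windows. Their other windows reached 16 letters for FDXR and 14 for ZMAT3. A score of at least 15, the best of SUSD6 and TP53I3, occurred in 70.5% of windows. Counting the first transcribed base as 1, the capitals began at position -21 for FDXR and at position 29 for GDF15. An exact half-site stood only in 1 of the 2 FDXR windows, against 6.63% of all windows, and with up to 1 mismatch allowed 6 of the 8 windows held one, against 63.7%. FDXR and GDF15 thus had the best-scoring windows of the 6 genes, and a relation between score and change was not tested. A match is a likeness of letters near a start site and not a measured binding site. Sequence outside these windows was not searched, so a low score does not show that a gene lacks a p53 element.

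Relatives of the 10 genes were set beside them family by family. The 10 genes were picked with their changes in view, and the relatives were listed by family, with earlier results of these data known. A gain in a listed gene's share of its family follows from the choice of the 10 genes and is given as a description. Of 18 relatives listed, 12 were tested, of which 8 rose, 1 fell and 3 did not pass the threshold, with a median log2 fold change of 0.22, where 29.3% of all tested genes rose and 29.4% fell. GADD45G, BTG4, REM1, REM2, FDX2 and GFRAL were too low to test, and REM1 and GFRAL had 0 reads in all 6 samples, which allows up to 3 counts each. In FDX2, with 2 to 7 reads per sample, 70.9% of exonic bases are shared with AC011511.1 on the same strand, so its level is uncertain.

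In the ribonucleotide reductase family, RRM2 is the S-phase counterpart of RRM2B. It rose by 0.43 on the log2 scale (SE 0.053, edgeR adjusted p = 2.89e-07), from 137 ± 7.64 to 184 ± 7.66 normalized CPM. The large subunit RRM1 had a log2 fold change of 0.07 (adjusted p = 0.25), and was called raised when scaled by library size alone (0.17; adjusted p = 0.00516) and without SCH replicate 1 (0.13; adjusted p = 0.0253). RRM2B made up 11.7%, 10.9% and 13.3% of the FPKM of RRM2 and RRM2B together in vehicle and 17.96%, 18.01% and 16.6% in SCH, so RRM2 remained the more abundant small subunit in every sample. In RRM2, 20.23% of exonic bases are shared with AC007240.1 on the same strand.

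In the GADD45 family, GADD45B had a log2 fold change of -0.07 (adjusted p = 0.362; 0.03 when scaled by library size alone), and GADD45A provided 58.4%, 56.0% and 55.9% of the family's FPKM in vehicle and 71.4%, 72.1% and 68.9% in SCH. Among the RGK GTPases, GEM had a log2 fold change of -0.14 (adjusted p = 0.0864), and was called lowered with upper quartile scaling (adjusted p = 0.0367) and without vehicle replicate 2 (adjusted p = 0.0305). RRAD accounted for 43.6%, 48.0% and 43.7% of the FPKM of RRAD, GEM, REM1 and REM2 in vehicle and for 83.6%, 81.9% and 83.1% in SCH. In both families the samples of the 2 groups did not overlap in these shares.

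TP53INP2, the autophagy-linked relative of TP53INP1, rose with it, by 1.31 on the log2 scale (SE 0.065; adjusted p = 7.07e-14), from 29.04 ± 1.48 to 72.2 ± 2.89 normalized CPM. TP53INP1 remained the minor member, at 6.96%, 7.08% and 6.51% of the pair's FPKM in vehicle and 11.5%, 11.2% and 11.9% in SCH. Among the antiproliferative BTG and TOB genes, TOB1 rose by 0.83 (adjusted p = 4.10e-09), BTG1 by 0.73 (adjusted p = 4.64e-10) and TOB2 by 0.21 (adjusted p = 0.006), while BTG3, at 0.16 (adjusted p = 0.0397), lost its call in DESeq2, with upper quartile scaling and in 4 of the 6 analyses that left out a sample. Part of the exonic bases of BTG1 (17.06%), BTG3 (12.14%) and TOB1 (11.15%) lies in other genes. BTG2 formed at most 1.84% of the FPKM of BTG1, BTG2 and BTG3 in any sample, so BTG1 and BTG3 carried nearly all of it. FDX1, the ferredoxin that FDXR reduces, rose by 0.24 (adjusted p = 0.00183). Of the 2 genes related to TP53I3, VAT1 rose by 0.22 (adjusted p = 0.000261) and CRYZ fell by 0.22 (adjusted p = 0.0148), a call that was lost when scaled by library size alone and without SCH replicate 1.

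**Figure D2:**
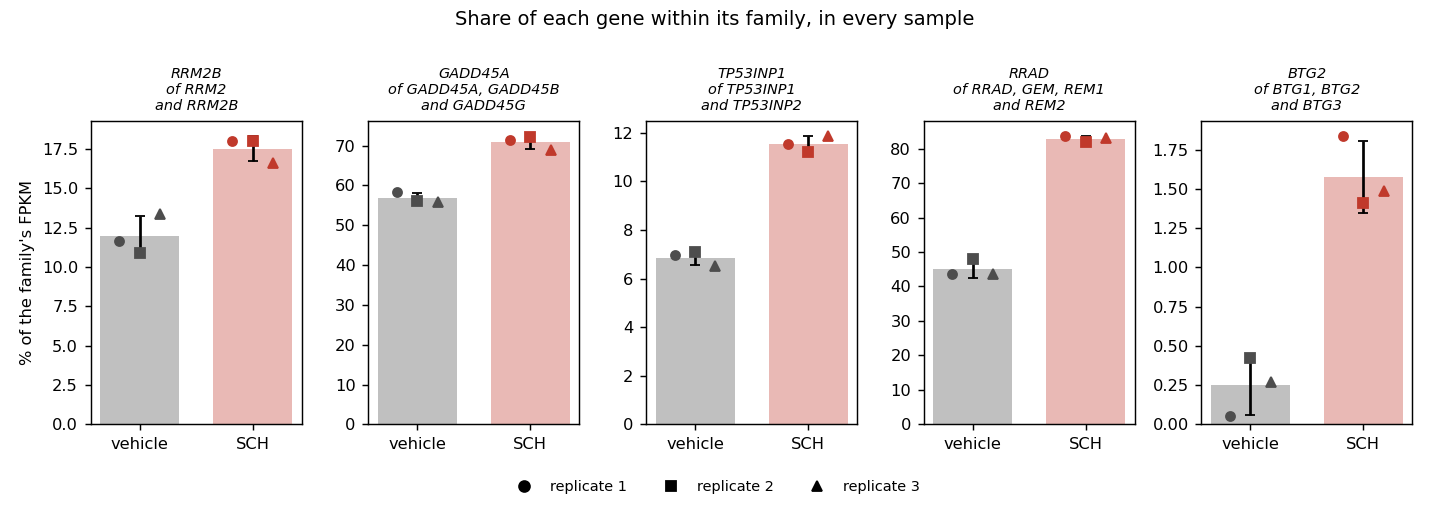
Share of the family's FPKM (percent) held by RRM2B, GADD45A, TP53INP1, RRAD and BTG2 in each vehicle and SCH sample; each point is 1 sample, and bars with error bars are means and SD. All 3 SCH samples lie above all 3 vehicle samples in each family, with RRAD going from 45.1% to 82.9% on average.

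Other p53 targets moved in both directions. Of 79 listed, 69 were tested, of which 37 rose, 11 fell and 21 did not pass the threshold, with a median log2 fold change of 0.23. The 57 tested targets outside the apoptosis list divided into 30 that rose, 9 that fell and 18 that did not pass, with a median of 0.19. These targets were listed with earlier results of the same samples known, and over all tested genes 29.3% rose and 29.4% fell, the shares that stand behind each count by role that follows. Among the 69 tested targets 53.6% rose and 15.9% fell.

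Among targets of the cell cycle and feedback, 6 of 12 tested rose and 3 fell. CDKN1A, the p21 kinase inhibitor, rose by 2.34 on the log2 scale and MDM2, the ligase that degrades p53, had a log2 fold change of -0.00079, at 80.6 and 80.5 normalized CPM (0.10 when scaled by library size alone, also not called). SERTAD1, a regulator of CDK4 and E2F activity, rose by 1.797 (SE 0.059; adjusted p = 3.79e-17), and PLK2, a polo-like kinase, fell by 0.54 (SE 0.050; adjusted p = 2.90e-09). The ubiquitin ligase RCHY1 fell by 0.36 and cyclin G1 (CCNG1) by 0.30, while the kinase PLK3 rose by 0.61. Of the feedback regulators of p53 in this list, the phosphatase PPM1D, singled out after its values were seen, rose by 0.33 (SE 0.081; adjusted p = 0.00118), RCHY1 and CCNG1 fell, and MDM2 and COP1 (-0.07; adjusted p = 0.364) were not called.

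Of 5 tested DNA repair targets, 3 rose and 1 fell. The translesion polymerases POLK and POLH rose by 0.45 and 0.30, the damage sensor DDB2 rose by 0.28, and the helicase ASCC3 fell by 0.18. The call of ASCC3 was lost when scaled by library size alone (adjusted p = 0.237) and without SCH replicate 3 (adjusted p = 0.0544). Exonic bases shared with other genes made up 10.81% in POLK, and 10.96% and 10.98% in the metabolic targets STEAP3 and PANK1. In metabolism, redox and autophagy, 7 of 13 rose and 2 fell. SESN1, a sestrin that restrains mTORC1, rose by 0.90, SAT1, the polyamine acetyltransferase, by 0.89 and the lysosomal fucosidase FUCA1 by 0.50. The ferrireductase STEAP3 fell by 0.83 (SE 0.059; adjusted p = 3.33e-11), from 78.0 ± 2.77 to 44.0 ± 0.892 normalized CPM, and PANK1, of coenzyme A synthesis, fell by 0.35, a call lost in 6 of 15 alternatives, DESeq2 and library size scaling among them. ACER2, the Golgi ceramidase, singled out after its values were seen, rose by 2.10 (SE 0.26; adjusted p = 2.26e-07) on 11 to 17 reads per vehicle sample.

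Among membrane, secreted and other targets, 14 of 27 rose and 3 fell. The transcriptional repressor HES2 rose by 1.37, the ubiquitin ligase RNF19B by 1.09 and ANKRA2 by 0.96. On the log2(FPKM + 1) scale, which shrinks low genes, HES2 was higher by 0.63, and SESN1 by 0.57. The macrophage growth factor CSF1 fell by 0.67 and EPS8L2 by 0.36, each with an adjusted p of 1.13e-05 or smaller. Of the apoptosis targets, 7 of 12 rose and 2 fell: BBC3 (PUMA) by 1.11, PIDD1 by 0.76 and APAF1 by 0.61 upward, and AEN by 0.64 and BAX by 0.28 downward.

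**Figure D3:**
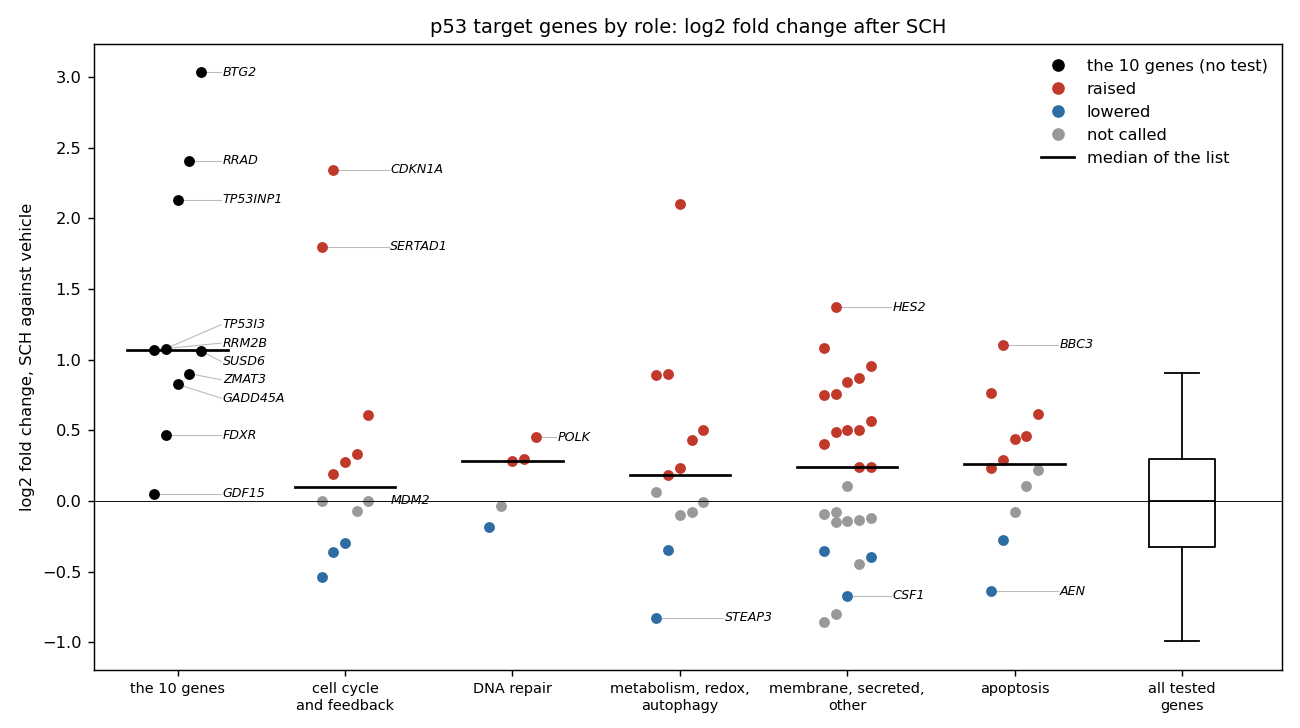
Log2 fold change of SCH against vehicle for the 10 genes and for 5 role lists of other p53 targets; each point is 1 gene, coloured by its edgeR call except for the 10 genes (black, no test), bars are list medians, and the box at the right gives the quartiles of all tested genes with whiskers at percentiles 5 and 95. The 10 genes have a median of 1.07, and the medians of the other lists lie between 0.10 and 0.28.

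**Figure D4:**
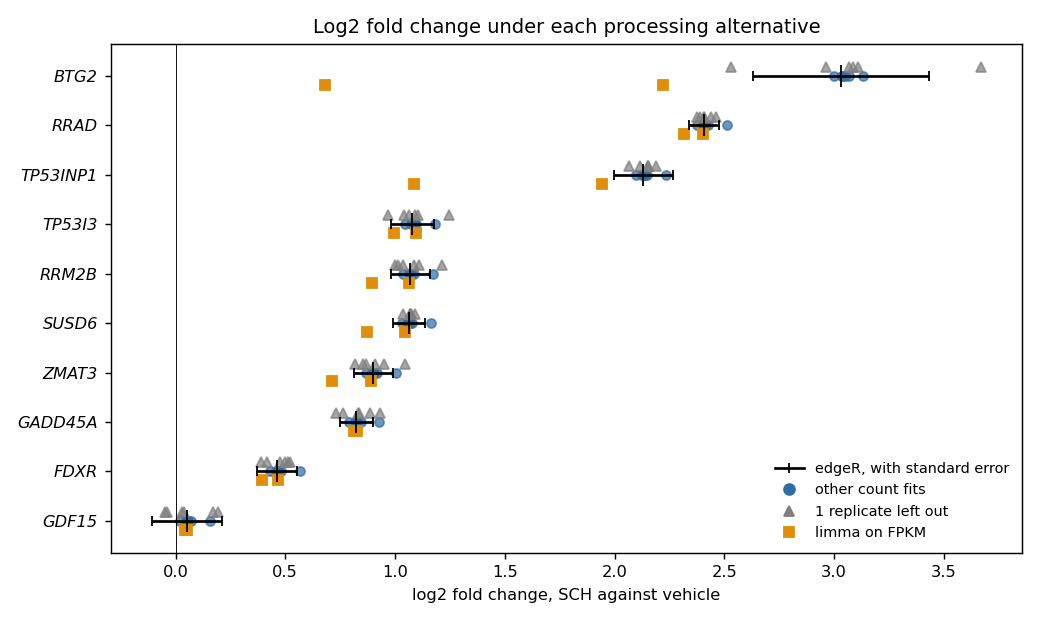
Log2 fold change of each of the 10 genes in the edgeR analysis and under the alternative normalizations, filters, tools and left-out samples; each point is 1 alternative, and the black bar is the edgeR value with its standard error. BTG2 has the widest range, from 0.68 on the log2(FPKM + 1) scale to 3.67 without vehicle replicate 2.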

How the data were processed

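Per the labels and the study's methods, poly-A RNA libraries were sequenced on an Illumina HiSeq. The submitters' processing notes name CASAVA 1.8, HISAT2 2.0.5, featureCounts 1.5.0-p3, DESeq2 1.20.0 and GRCh38. The authors deposited raw gene-level read counts and a second set of files in FPKM, which scale those counts by gene length, library size and a further constant of 0.937 to 1.008 per sample (lower in SCH). Whether counting used strand is not given in the sources used here.

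Counts were tested with edgeR 4.0.16 in R 4.3.3 by a quasi-likelihood fit of SCH against vehicle without covariates, after TMM scaling and filterByExpr, on all 14736 genes kept, with Benjamini-Hochberg adjustment at 0.05. The p-values set the difference between the groups against the spread between samples of a group, moderated across genes. They speak for these samples of this line, dose and time only. Depth was 16836369 to 20291379 counts, a floor is 3 counts, and floors cover counting error only. Standard errors come from the edgeR fit and SDs from the samples of a group, so both include the spread between samples. Chi-square divided by its degrees of freedom was 2.12 to 5.75 between replicates of a group, so none was a copy of another. The procedure was also run on simulated counts in which only a small part of the genes changed. That setting does not cover a shift of much of the transcriptome as seen here.

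The 10 genes, the lists and the tests were chosen with earlier results of these data known. Named from each list of other targets were at most 3 raised and 3 lowered genes with the largest changes and a mean count of at least 50, with all relatives and markers tested. GPX1 could not be matched, and some genes that this rule names are not reported here. Spans and exon overlaps are from GENCODE 29. Alternatives were other size factors, filters and thresholds, DESeq2 1.42.0, limma 3.58.1 on log2(FPKM + 1) and log2(FPKM + 0.1), a replicate block and each sample left out.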

Additional observations from a re-analysis of the deposited data

How the results depend on the processing

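Alternatives were run for 50 single genes, which leaves out PTPRC, PECAM1, ACER2, PPM1D and COP1. None of the called genes among the 50 changed sign, and the small differences of GDF15, MDM2 and GADD45B, not called, took either sign. Requiring an absolute log2 fold change of at least 1 besides the adjusted p left 1292 of 8650 changed genes, 6 of 48 other p53 targets and 1 of 9 relatives. The median log2 fold change of the 10 genes was 1.07 in the main analysis and 0.84 with limma on log2(FPKM + 1), a scale that understates low genes. Leaving out 1 sample at a time gave 7809 to 8489 changed genes, 44 to 49 other targets, 8 to 9 relatives, and a median of 1.02 to 1.09 for the 10 genes. DESeq2 called 7919 genes. Scaling by library size alone put the median of all genes at 0.099 and the raised share of changed genes at 62.6%, against 49.9% with TMM. Under that scaling BAX fell by 0.17 and CCNG1 by 0.20, against 0.28 and 0.30 in the main analysis, and both were still called. With at least 10 counts in every sample required, BTG2 was not tested. The samples share replicate numbers only: same-numbered vehicle and SCH samples correlated at 0.0464, -0.0222 and 0.0220 in their deviations from the group means, and a fit with a replicate block called 8705 genes. Of the 10 genes, BTG2 rests on few reads, and GDF15 on a spread larger than its difference.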
